A study of Mus musculus with 4 samples.

Results

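The insulin-like growth factor (IGF) system of retinal endothelial cells is described here through 9 genes: the ligand gene Igf1, the receptor genes Igf1r and Insr, and the binding-protein genes Igfbp2, Igfbp3, Igfbp4, Igfbp5, Igfbp6 and Igfbp7. They were taken by gene name from the 54446 genes of the deposited table, and all 9 were found, each on a single row. RNA was sequenced from endothelial cells, which form the inner lining of vessels, after flow-cytometric sorting from retinas of C57BL/6 mice on postnatal day 16. There were 2 libraries labelled control and 2 labelled Zeb1-CKO, each from 100 sorted cells. The titles call the second group a conditional knockout of Zeb1, which encodes a zinc-finger transcriptional repressor, and the genotype field calls it a knockdown. The labels used here name neither the promoter that drives the recombinase nor the age at deletion, and do not say whether the controls carry a floxed allele or whether the libraries came from separate animals. The p-values therefore measure only the spread between these libraries, which may be technical.

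IGF1 and IGF2 are secreted peptides that act through the IGF1 receptor, a tyrosine kinase closely related to the insulin receptor encoded by Insr, and both receptors signal through adaptor proteins to the PI3K-AKT pathway. The IGF-binding proteins (IGFBPs) are secreted carriers that hold IGFs outside the cell and can limit or prolong their action, and proteases that cut them release the ligand. In the retina, IGF1 is known to be needed for normal postnatal vessel growth, and Igfbp3 is known as a gene of sprouting endothelial tip cells.

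Values are FPKM (fragments relative to transcript length in kilobases and to the library's fragments), which can be compared between genes because they are per length. The library sums lay between 283814 and 294276 FPKM. Steps between low values gave depths of 22.4 to 43.9 M reads, if 1 step is 1 read, and control 2 was the shallowest at 0.510 of the deepest library. Zeb1 itself was at 10.7 and 11.1 FPKM in controls against 8.66 and 7.07 in Zeb1-CKO libraries, a log2 fold change of -0.43 with limma's adjusted p at 0.235. A value per gene does not separate the deleted part from the rest of the transcript. The 12 endothelial markers summed to 4015 and 4768 FPKM in the controls and to 4497 and 4911 FPKM in the Zeb1-CKO libraries, none of them called. Pericyte markers were present in every library at sums of 1725 to 2493 FPKM, led by Rgs5 at 1201 to 1673 FPKM, so transcripts of these vessel-wall cells were measured beside the endothelial ones. Of the 10 pericyte markers, 7 were lower in Zeb1-CKO libraries without overlap and 0 higher, against 22.3% and 27.1% of all genes tested. None of the 10 was called. Of 6 smooth-muscle markers, 5 were fitted, and 5 were lower without overlap and 0 higher. Of these 1, Tagln, was called lower (limma's adjusted p of 0.0429), against 0.901% of all genes tested. Red-cell markers, mostly haemoglobin genes, summed to 2727 and 3298 FPKM in controls against 745 and 1409 in Zeb1-CKO libraries. All 5 of them were lower without overlap, against 22.3% of all genes tested. Limma called 0 of them, against 0.901% of all genes tested called lower. Pericyte, smooth-muscle and red-cell markers are given here since most of them were lower without overlap in Zeb1-CKO libraries, though only Tagln was called. Their part in the values of the IGF genes was not tested.

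The DNA just before the transcription start is shown for members with a match to the words searched for, which are given below. These are the binding-protein genes Igfbp3, Igfbp2 and Igfbp7. Igfbp3 was called higher in Zeb1-CKO cells, the Igfbp2 libraries did not overlap between genotypes, and Igfbp7 was the most abundant member. The windows of Igf1, Igf1r, Igfbp4, Igfbp5 and Igfbp6 held no match and are not shown. The 250 bases come from RefSeq's GRCm38.p6, the build called mm10, at chr11:7213924-7214173 on the minus strand for Igfbp3, chr1:72824230-72824479 on the plus strand for Igfbp2, and chr5:77408046-77408295 on the minus strand for Igfbp7. Each is printed 5′ to 3′ in the direction of its gene, and capitals mark matches on either strand to CACCTG, the E-box type that ZEB proteins bind, or to ACGTG, the core of the hypoxia response element.

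Igfbp3: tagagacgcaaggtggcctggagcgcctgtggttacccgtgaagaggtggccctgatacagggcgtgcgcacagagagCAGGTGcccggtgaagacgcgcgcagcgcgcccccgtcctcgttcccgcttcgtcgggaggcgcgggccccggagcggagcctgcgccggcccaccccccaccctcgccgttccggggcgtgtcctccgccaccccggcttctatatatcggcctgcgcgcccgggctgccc
Igfbp2: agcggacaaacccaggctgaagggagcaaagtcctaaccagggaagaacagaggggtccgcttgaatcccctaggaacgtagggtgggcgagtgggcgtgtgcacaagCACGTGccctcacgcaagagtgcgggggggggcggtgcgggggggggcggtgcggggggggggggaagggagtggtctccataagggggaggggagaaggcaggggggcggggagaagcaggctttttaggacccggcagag
Igfbp7: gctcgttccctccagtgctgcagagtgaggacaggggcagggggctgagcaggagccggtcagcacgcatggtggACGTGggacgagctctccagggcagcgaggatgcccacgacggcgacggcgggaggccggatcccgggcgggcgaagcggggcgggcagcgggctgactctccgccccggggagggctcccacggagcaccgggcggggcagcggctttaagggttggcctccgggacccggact

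The capitals of Igfbp3 are CAGGTG, which is CACCTG read on the opposite strand, 172 to 167 bases before the start. Of the 8 members with a promoter sequence, Igfbp3 was the only one with this 6-base word in its windows, and 17.2% of 32851 promoters of the same length hold it. The capitals of Igfbp2 are a palindrome in which ACGTG matches on both strands, and Igfbp7 has 1 ACGTG, 175 to 171 bases before the start. ACGTG is found in 16.6% of all promoters. Another word, TGTTTAC, which forkhead factors bind, was in none of the members' windows and is in 3.17% of all promoters. These matches describe the letters only and were not tested for binding.

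In Zeb1-CKO cells the carrier gene Igfbp3 and the ligand gene Igf1 were higher, the receptor genes Igf1r and Insr overlapped between genotypes, and none of the tested members was called lower. Of the 9 genes, 8 reached the mean of 1 FPKM over the 4 libraries needed for the test, which was limma on log2(FPKM + 1) over 13651 genes with Benjamini-Hochberg adjusted p under 0.05. Of these 8, 2 were called higher, against 2.23% of all genes tested, and 0 lower, against 0.901%. At an unadjusted p under 0.05 there were 3, these genes and Igfbp2, and all 3 were higher, against 10.5% of all genes tested that were higher at that p. For 4 of the 8 the genotypes' libraries did not overlap and were higher in Zeb1-CKO cells, against 27.1% of all genes tested that were separated in that direction and 22.3% in the other. The median log2 fold change of the 8 was 0.12, beside 0.02 for all genes tested. The filter bears on the direction of these counts. Igf1 passed it only through its Zeb1-CKO libraries, while Igfbp6, which was lower in both Zeb1-CKO libraries than in both controls, was removed by it. Over the 9 genes, 4 were thus higher without overlap, 1 was lower without overlap and 4 overlapped. The members were chosen with earlier results of these data known, so the shares over all genes are given for scale only.

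**Figure D1:**
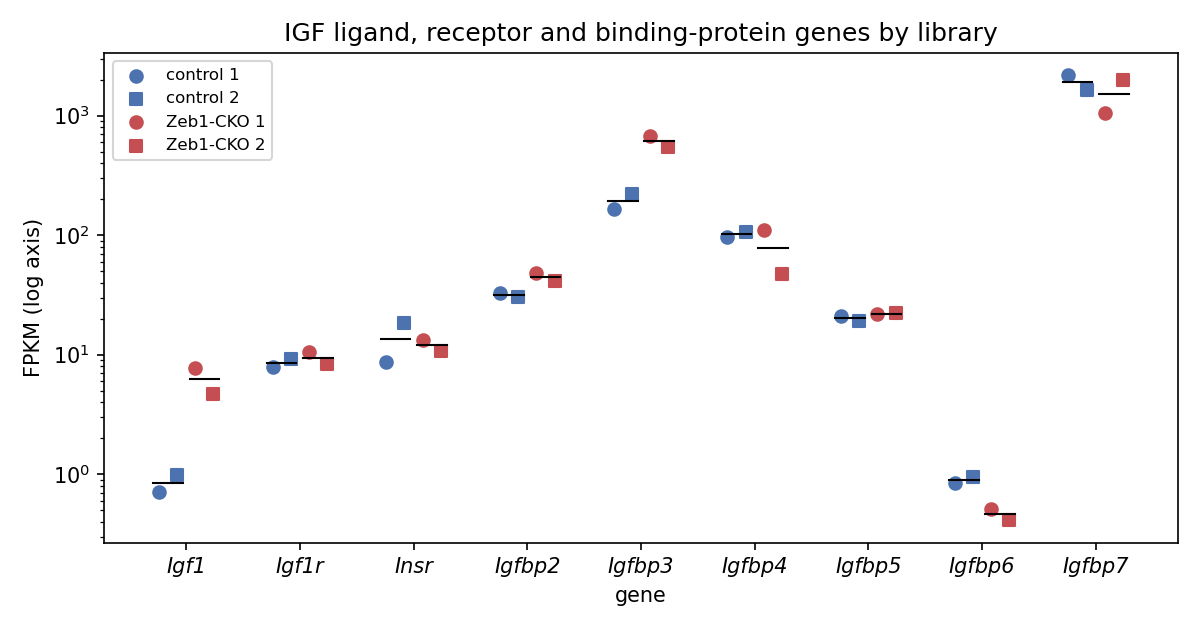
FPKM of the 9 genes in each library on a log axis, with control libraries in blue, Zeb1-CKO libraries in red and a black line at each genotype's mean. Igf1 and Igfbp3 show the clearest gaps between the red and blue points, while Igfbp7, Igfbp4, Insr and Igf1r overlap between genotypes.

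Igf1, the ligand, was close to silent in control cells and moderately expressed in Zeb1-CKO cells. It measured 0.714 and 0.982 FPKM in controls against 7.80 and 4.65 in Zeb1-CKO libraries. Both Zeb1-CKO libraries lay above both controls, by a wider margin than the spread within either genotype. The means were 0.848 ± 0.189 and 6.22 ± 2.22 FPKM (SD, n = 2 per genotype), a ratio of 7.34. The added 1 FPKM makes log2(FPKM + 1) shrink changes at such low levels, and on that scale the fold change was 1.94 (SE 0.25, 95% interval 1.305 to 2.57), with limma's adjusted p at 0.0224. The size on this scale depends on the number added: it was 2.71 with 0.1 FPKM and 0.93 with 5 FPKM, and called in both. This gene passed the filter on the mean only through the Zeb1-CKO libraries, since its control mean was under 1 FPKM. Igf1 (chromosome 10, 87858265 to 87937042, plus strand, mm10) has 8 annotated transcripts of 510 to 7052 bases, and the depths put 11 to 207 reads behind the control values and 79 to 2412 behind the Zeb1-CKO values, depending on the transcript. Its antisense gene Igf1os shares no exon base with it and was at most at 0.0767 FPKM. The call of Igf1 ended with no filter on the mean (limma's adjusted p of 0.153), without control replicate 1 (limma's adjusted p of 0.0540), without Zeb1-CKO replicate 1 (0.118) and without Zeb1-CKO replicate 2 (0.0611), at log2 fold changes of 1.94, 1.83, 1.62 and 2.25.

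Macrophages, microglia, neurons and glia are also known to make IGF1, and a bulk library cannot tell more cells of a type from more RNA per cell. The 12 microglial and myeloid markers summed to 28.6 and 86.0 FPKM in controls against 25.3 and 14.3 in Zeb1-CKO libraries. Both Zeb1-CKO libraries were below both controls, and Zeb1-CKO 1 was close to control 1. Of the 12, 6 had non-overlapping libraries and were lower in Zeb1-CKO cells, against 22.3% of all genes tested, and 1 was higher in that way, against 27.1%. The latter was P2ry12, at 0.615 and 0.441 FPKM against 0.861 and 0.993. The shares cover fitted genes only, while 8 of the 12 markers were fitted. P2ry12 was below the filter, and so were Ptprc and Tmem119 among the 6 lower ones. Markers of Müller glia and astrocytes summed to 404 and 446 FPKM in the controls and 437 FPKM in each Zeb1-CKO library. Of these 9 markers, 7 were fitted and none was called. Without overlap 3 were higher, Gfap, Slc1a3 and the nearly undetected Aqp4, and 1, Glul, was lower, against the same 27.1% and 22.3%. Gfap was at 56.7 and 60.6 FPKM in controls against 68.2 and 137 in Zeb1-CKO libraries, and Glul at 71.9 and 64.8 against 44.9 and 45.3. Those of inner retinal neurons summed to 26.7 and 29.4 FPKM against 26.9 and 46.2 FPKM, with 2 of 9 higher and 3 lower without overlap. Fibroblast markers summed to 52.4 and 59.4 FPKM in controls against 54.9 and 57.5 in Zeb1-CKO libraries. Single markers of this list moved in opposite directions without overlap, and none was called. Pdgfra was higher, at 25.8 and 22.9 FPKM in controls against 37.8 and 37.6 in Zeb1-CKO libraries. Col3a1 (19.3 and 26.4 against 12.7 and 13.7) and Col1a2 (6.00 and 7.74 against 2.75 and 3.29) were lower. Photoreceptor markers were at 92.0 and 10.3 FPKM against 48.9 and 55.3 FPKM. The part of these other cell types in the Igf1 values was not tested.

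**Figure D2:**
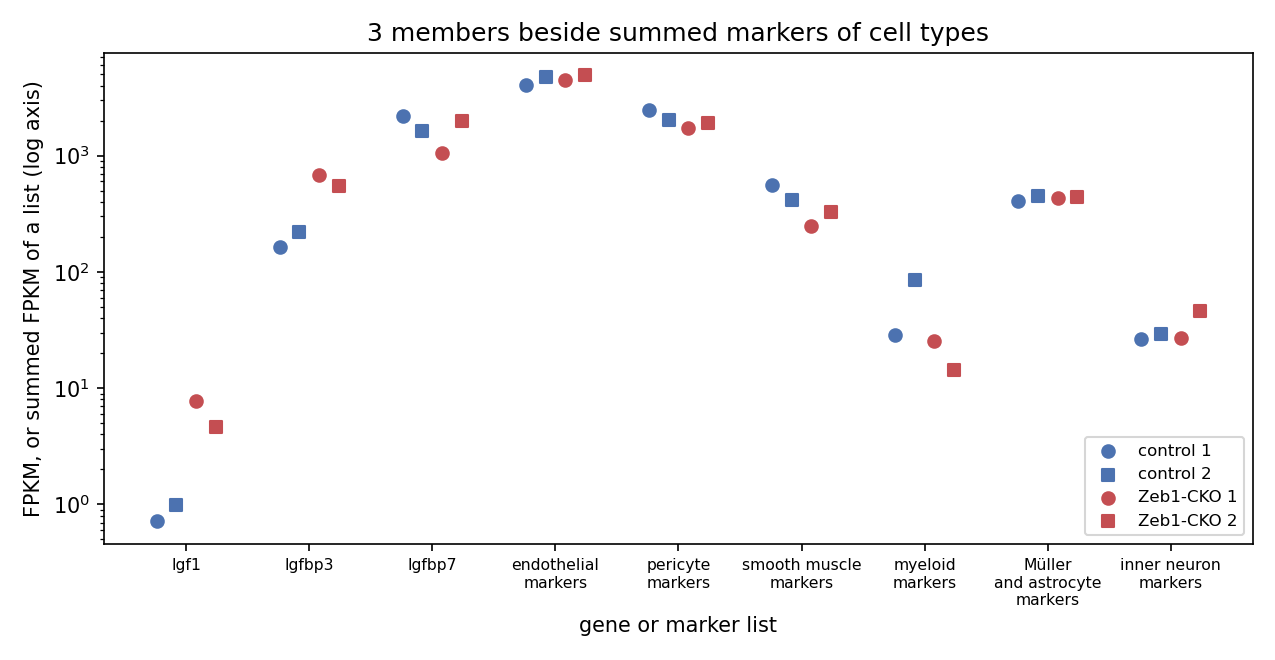
FPKM of Igf1, Igfbp3 and Igfbp7 and the summed FPKM of 6 marker lists in each library, on a log axis, with controls in blue and Zeb1-CKO libraries in red. Myeloid markers were at 28.6 and 86.0 in controls and at 25.3 and 14.3 in Zeb1-CKO libraries. Igf1 was at 0.714 and 0.982 in controls and at 7.80 and 4.65 in Zeb1-CKO libraries.

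The receptors showed no difference beyond their spread. Igf1r, which encodes the IGF1 receptor (chromosome 7, 67952827 to 68233668), was at 7.89 and 9.12 FPKM in controls against 10.4 and 8.35 in Zeb1-CKO libraries, so that the genotypes overlapped. Its log2 fold change was 0.12 (95% interval -0.29 to 0.54), with limma's adjusted p at 0.749. Insr, which encodes the insulin receptor (chromosome 8, 3122061 to 3279617), was at 8.76 and 18.3 FPKM in controls against 13.3 and 10.8 in Zeb1-CKO libraries. The 2 controls thus lay on either side of both Zeb1-CKO libraries, a 2.09-fold gap within 1 genotype. Its log2 fold change was -0.08 with a wide 95% interval, -0.90 to 0.73 (limma's adjusted p of 0.922). Insr was above Igf1r in each library, with ratios of 1.11 and 2.01 in controls against 1.27 and 1.29 in Zeb1-CKO cells.

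Igfbp3, a secreted carrier of circulating and local IGF, was the member with the largest gain in absolute level. It was at 164 and 220 FPKM in controls against 681 and 544 in Zeb1-CKO libraries. The lowest Zeb1-CKO library was above the highest control by more than the range within either genotype. The means were 192 ± 39.9 and 613 ± 97.2 FPKM (SD, n = 2 per genotype), a ratio of 3.19, and the log2 fold change was 1.67 (SE 0.20, 95% interval 1.18 to 2.17) with limma's adjusted p at 0.0174. Ordered by mean level among the 13651 fitted genes, Igfbp3 stood 185th from the top in controls and 38th in Zeb1-CKO cells. Among the 304 genes called higher, its fold change ranked 126th and that of Igf1 ranked 91st. The gene lies at 7206086 to 7213923 on the minus strand of chromosome 11, next to Igfbp1 on the opposite strand, and Igfbp1 was low throughout, at 1.60 and 2.15 FPKM in controls against 1.77 and 2.35 in Zeb1-CKO libraries. The call of Igfbp3 ended with no filter on the mean (limma's adjusted p of 0.157), with the replicate number as a block (limma's adjusted p of 0.0564), without Zeb1-CKO replicate 1 (0.116) and without Zeb1-CKO replicate 2 (0.0778), at log2 fold changes of 1.67, 1.67, 1.51 and 1.84.

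**Figure D3:**
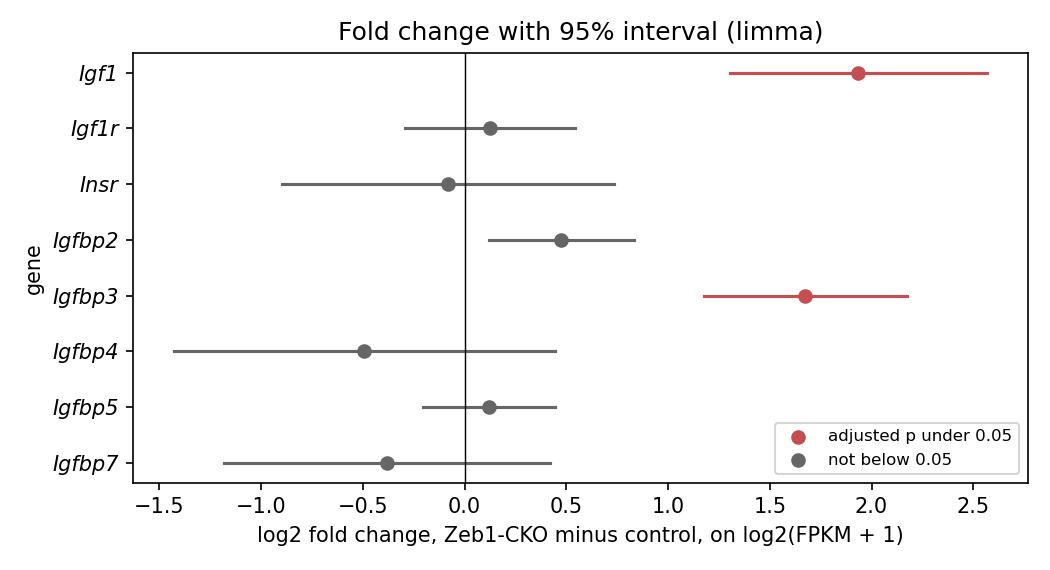
Log2 fold change of the 8 fitted members, Zeb1-CKO minus control on log2(FPKM + 1), with 95% intervals from limma and called genes in red. The intervals of Igf1 (1.305 to 2.57) and Igfbp3 (1.18 to 2.17) lie furthest from 0, and those of Igfbp4, Igfbp7 and Insr are the widest.

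Igfbp3 was compared with 4150 other genes averaging 10 FPKM or more, leaving out pseudogenes, mitochondrial genes and genes with only a provisional name. Nearest to it in log2 profile were the integrin gene Itga3, the matrix gene Npnt and Tnfrsf12a, a receptor gene of the tumour necrosis factor family. Their Euclidean distances, each profile being centred on its own mean, were 0.0540, 0.159 and 0.253 over 4 libraries. Itga3 was at 6.69 and 9.28 FPKM in controls against 29.4 and 24.1 in Zeb1-CKO libraries. By the same measure the gene nearest to Igf1 was Igfbp3, at a distance of 0.375. In both genes control 2 was above control 1, and Zeb1-CKO 1 above Zeb1-CKO 2.

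Igfbp2, a carrier made by many epithelial and glial cells, was at 32.9 and 30.6 FPKM in controls against 48.3 and 41.0 in Zeb1-CKO libraries. Its genotypes did not overlap, and the log2 fold change of 0.48 (95% interval 0.12 to 0.83) did not pass, with limma's adjusted p at 0.169. Igfbp5, a carrier that binds matrix, lies beside Igfbp2 on chromosome 1 (72857932 to 72874884, next to 72824503 to 72852474) on the opposite strand. It was at 21.1 and 19.3 FPKM in controls against 22.0 and 22.1 in Zeb1-CKO libraries, and its 95% interval of -0.20 to 0.45 on the log2 scale was the narrowest of the 8. The neighbours had an FPKM ratio, Igfbp2 over Igfbp5, of 1.56 and 1.59 in controls and of 2.20 and 1.85 in Zeb1-CKO cells.

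Igfbp7, a secreted protein that binds IGFs weakly and is abundant in vessel walls, had the highest level of the 9 in each library. It was at 2177 and 1630 FPKM in controls against 1056 and 1975 in Zeb1-CKO libraries, the 11th highest mean in each genotype. The lowest value belonged to Zeb1-CKO 1 and the genotypes overlapped, with a log2 fold change of -0.38 (95% interval -1.18 to 0.42; limma's adjusted p of 0.598). Pericytes also make Igfbp7, and their summed markers ran from 2493 and 2022 FPKM in controls to 1725 and 1928 FPKM in Zeb1-CKO libraries, with Zeb1-CKO 1 the lowest here too; their part in the Igfbp7 values was not tested. Of the 1209 exon bases of Igfbp7, 85 are shared with Polr2b on the other strand, which was at 17.6 to 19.5 FPKM, in libraries not described as marking strand.

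Igfbp4, a carrier that inhibits IGF action, was at 96.5 and 107 FPKM in controls against 110 and 47.1 in Zeb1-CKO libraries. Here 1 library, Zeb1-CKO 2, stood apart from the other 3, and the 2 Zeb1-CKO values differed 2.33-fold. The log2 fold change was -0.49 (95% interval -1.43 to 0.44; limma's adjusted p of 0.560), and it was 0.11 without Zeb1-CKO replicate 2. Igfbp6, a carrier with a preference for IGF2, was the lowest binding-protein gene, at 0.848 and 0.948 FPKM in controls against 0.510 and 0.411 in Zeb1-CKO libraries. It was below the filter and so was not tested with the others, and about 15 to 39 reads stood behind each value. Its libraries did not overlap, and with no filter limma gave a log2 fold change of -0.38 with an adjusted p of 0.712.

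In controls the members ranked, from high to low, Igfbp7, Igfbp3, Igfbp4, Igfbp2, Igfbp5, Insr, Igf1r, Igfbp6 and Igf1. Neighbours in this order were separated in both control libraries except for Insr with Igf1r and Igfbp6 with Igf1, whose ranges overlapped. In Zeb1-CKO cells the order was the same except that Igf1 stood above Igfbp6, and the ranges of Igfbp4 and Igfbp2 overlapped.

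Added together, the 6 binding-protein genes gave 2492 and 2008 FPKM in controls against 1918 and 2629 in Zeb1-CKO libraries, so the total overlapped between genotypes. Shares of such a sum move against each other, so a share can fall while the gene's own level does not. Igfbp3 made up 6.58% and 11.0% of the sum in controls against 35.5% and 20.7% in Zeb1-CKO libraries, a mean difference of 19.3 percentage points (exact two-sided permutation p of 0.333, the smallest that 2 against 2 libraries can give). Igfbp7 made up 87.4% and 81.2% in controls against 55.1% and 75.1% in Zeb1-CKO libraries. Without Igfbp7, which is a weak IGF binder, the sum of the other 5 was 315 and 378 FPKM in controls against 862 and 654 in Zeb1-CKO libraries. Within it, Igfbp3 made up 52.0% and 58.3% in controls against 79.1% and 83.1% in Zeb1-CKO libraries. The depth of each share was not given in counts, so no counting interval was computed. The Igfbp3 share differed by 11.9 percentage points without Zeb1-CKO replicate 1.

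**Figure D4:**
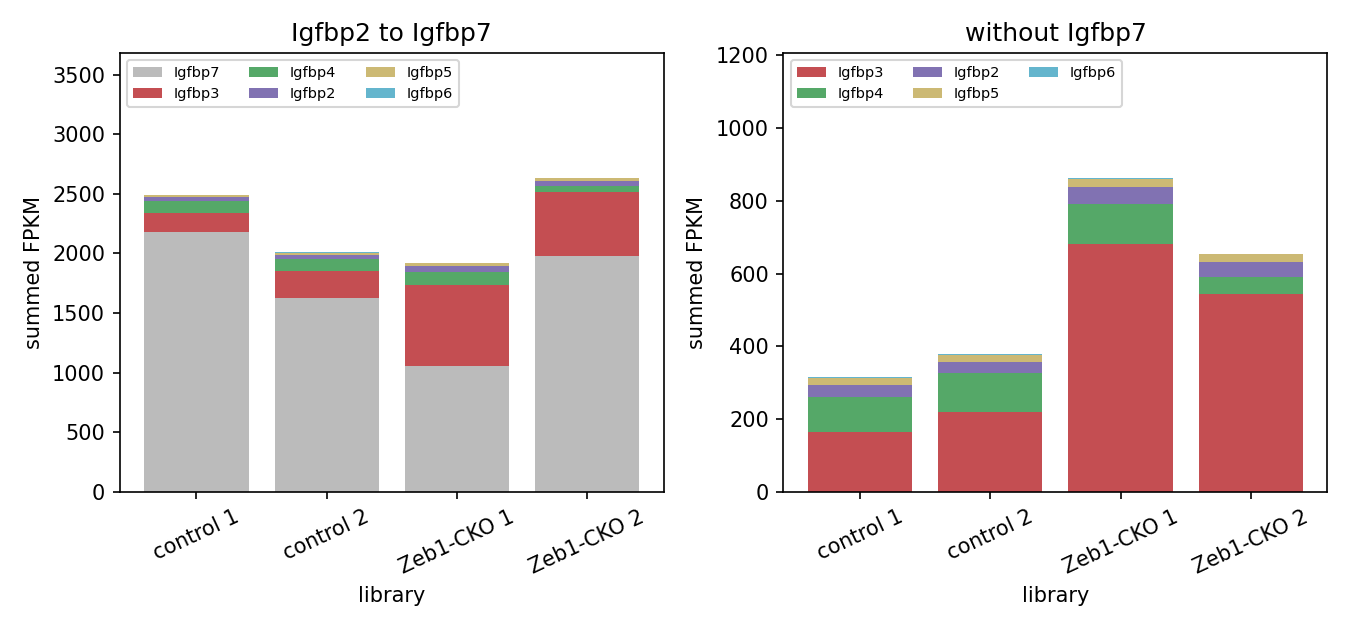
Summed FPKM of the binding-protein genes in each library, stacked by gene, with Igfbp7 on the left and without it on the right. The left bars overlap in height between genotypes (1918 to 2629), and on the right both Zeb1-CKO bars (862 and 654) stand above both control bars (315 and 378), mostly through Igfbp3 in red.

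Around these 9 genes, 65 further genes of the IGF pathway were placed in 5 lists, of which 56 were fitted. Only Htra1 was called, and it fell; 0 were called higher and 55 did not pass, against 2.23% and 0.901% of all genes called higher and lower. Htra1 encodes a secreted serine protease known to cut IGFBPs. It was at 55.4 and 51.6 FPKM in controls against 20.96 and 16.2 in Zeb1-CKO libraries, with no overlap. The ratio of control to Zeb1-CKO means was 2.88, and the log2 fold change was -1.49 (SE 0.17, 95% interval -1.90 to -1.08) with limma's adjusted p at 0.0149. Its call ended with no filter on the mean (limma's adjusted p of 0.0898), and without Zeb1-CKO replicate 1 (0.0508) or 2 (0.0767), at log2 fold changes of -1.49, -1.66 and -1.31. Smooth-muscle markers, which summed to 560 and 418 FPKM in controls against 248.8 and 326 in Zeb1-CKO libraries, moved the same way as Htra1; their part was not tested. The other 8 genes of that list of IGFBP proteases, protease inhibitors and IGFBP3 receptors included Pappa and Pappa2. These encode pregnancy-associated metalloproteases that cut IGFBPs, and both were at or below 0.108 FPKM. Stc1, which encodes an inhibitor of these proteases, was at 87.3 and 84.2 FPKM in controls against 70.1 and 72.7 in Zeb1-CKO libraries. The related inhibitor gene Stc2 lay the other way without overlap, at 1.06 and 0.725 FPKM in controls against 2.05 and 1.90 (log2 fold change 0.66, limma's adjusted p of 0.177), and like Igf1 it passed the filter only through its Zeb1-CKO libraries. On the same scale the log2 fold change of Stc1 was -0.26, with limma's adjusted p at 0.346.

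Of 9 other ligand, receptor and carrier genes, 4 were fitted and none was called (0 with an unadjusted p under 0.05). Igf2, the second IGF ligand and an imprinted gene, was at 18.6 and 7.27 FPKM in controls against 19.3 and 14.2 in Zeb1-CKO libraries. Igf2 was above Igf1 in each library, by ratios of 26.02 and 7.41 in controls against 2.47 and 3.05 in Zeb1-CKO cells, which did not overlap. Igf2r, whose product clears IGF2, was at 8.36 and 10.5 FPKM in controls against 9.63 and 10.8 in Zeb1-CKO libraries. The insulin genes were nearly undetected: Ins2 was listed at 0 in each library and Ins1 reached 0.0836 FPKM in control 2 only.

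Among 11 receptor adaptors and inhibitors, 10 were fitted and none was called by limma, with 2 at an unadjusted p under 0.05, against 17.9% of all genes tested, and a median log2 fold change of -0.21. By the mean over the 4 libraries the most abundant were the adaptor genes Shc1, at 25.9 and 28.3 FPKM in controls against 27.6 and 31.5 in Zeb1-CKO libraries, and Grb10, at 21.1 and 23.9 against 24.8 and 20.1 FPKM. In controls alone Ptpn1, which encodes a phosphatase that acts on the insulin receptor, was above Grb10, at 22.9 and 25.1 FPKM, and its Zeb1-CKO libraries were lower without overlap at 18.0 and 16.7 (limma's adjusted p of 0.171). Irs2, the insulin receptor substrate gene with the lowest fold change of this list and singled out after its value was seen, was at 6.59 and 8.99 FPKM in controls against 3.62 and 4.29 in Zeb1-CKO libraries, with limma's adjusted p at 0.0966. All 22 genes of the PI3K-AKT-mTOR list were fitted, and none was called by limma (1 at an unadjusted p under 0.05, against the same 17.9%, median -0.05). The most abundant were the kinase gene Gsk3b, at 27.6 and 27.5 FPKM against 26.8 and 30.4, and the GTPase gene Rheb, at 23.5 and 22.7 against 23.0 and 22.0.

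Of 14 FOXO factor and FOXO target genes, 13 were fitted and none was called by limma, with 5 at an unadjusted p under 0.05, against 17.9% of all genes tested, and a median log2 fold change of -0.24. Of the 13, 9 had a negative fold change. Without overlap, 8 were lower in Zeb1-CKO libraries and 2, Txnip and Sesn1, were higher, against 22.3% and 27.1% of all genes tested. Bcl2l11, Cited2 and Cdkn1b were lower with an unadjusted limma p under 0.05, at log2 fold changes of -0.61, -0.60 and -0.66. The most abundant, Txnip, which encodes a thioredoxin-binding inhibitor of glucose uptake, was at 31.0 and 34.4 FPKM in controls against 72.4 and 55.7 in Zeb1-CKO libraries, with no overlap and limma's adjusted p at 0.0530. Sesn1, a stress-response gene, was at 23.0 and 19.9 FPKM in controls against 29.1 and 27.6 in Zeb1-CKO libraries, with an adjusted p of 0.232 in the limma fit. Over all 56 fitted genes of the 5 lists, 19 had a positive and 37 a negative log2 fold change, with a median of -0.12, beside 7208 positive and 6443 negative and a median of 0.02 over all genes tested.

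**Figure D5:**
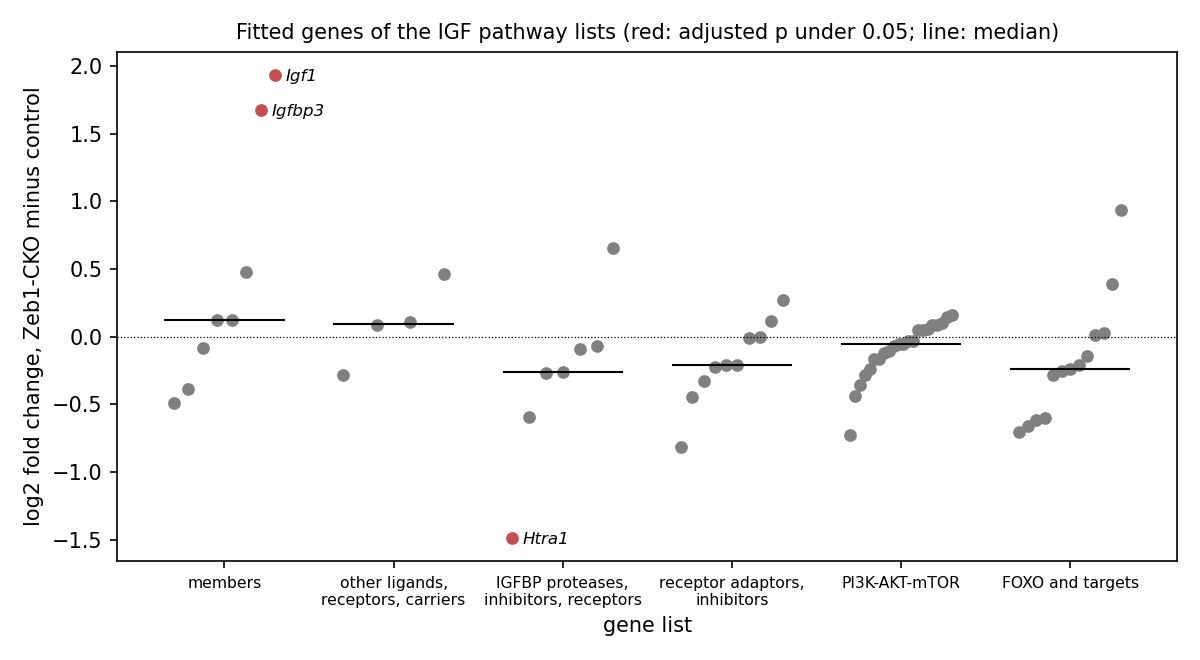
Log2 fold changes, Zeb1-CKO minus control, of the fitted genes of the 9 members and of the 5 further IGF pathway lists, with 1 point per gene, a line at each median and called genes in red. Igf1 and Igfbp3 stand above 0 at 1.94 and 1.67, Htra1 stands at -1.49, and the other fitted genes are grey.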

How the data were processed

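RNA from 100 sorted retinal endothelial cells per library was sequenced in 4 libraries, 2 for each genotype. SMART-Seq v4 amplification and NuGEN Ovation library preparation were used, per the labels' protocols, and neither is described there as marking strand. The processing named Trimmomatic 0.36, HISAT2 2.1.0, StringTie 1.3.3 and genome build mm10, per the submitters' processing notes, with settings and annotation release not given in the sources used here. Values were deposited as FPKM, computed by the authors, a unit read from the values and tools since the header names none.

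Columns were matched to samples by name. The main fit used limma 3.58.1 under R 4.3.3, on log2(FPKM + 1) with an intensity trend and no term but genotype, over the 13651 genes whose mean reached 1 FPKM, with Benjamini-Hochberg adjustment over all of them and a threshold of 0.05; it was tested on simulated data. GENCODE M21, in which 53229 of the versioned identifiers were found, gave spans and transcript lengths. Depth was read from FPKM times length in genes with 1 transcript longer than 600 bases: 24.4% to 30.2% of values under 400 lay within 0.02 of a whole step, against 4% at random. With BLAST 2.17.0, no other gene's transcript matched a member at 95% identity over 80% of the shorter transcript. Promoters came from RefSeq, 8 of 9 members matched, and Insr had none.

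The members and lists were chosen with earlier results of these data known. The genes named are the 9 members, Zeb1, every called gene of the 5 wider lists or the 2 most abundant where none was called, and the nearest profiles; the others named were chosen after their values were seen. The planned protein comparison was not run; protein sequences were not used here.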

Additional observations from a re-analysis of the deposited data

How the results depend on the processing

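Leaving out a library, other pseudocounts, filters, scalings and variance models and a block were tried; 119 values for single members kept direction and side of the threshold in 106. The count of members called higher, 2, became 0 with no filter, 1 with a filter at a mean of 5 FPKM, which removes Igf1, and ranged from 0 to 2 when single libraries were left out. The count of members called lower was 0 in each of the 15 alternatives. With the replicate block 1 member, Igf1, was called higher. The deviations of same-numbered libraries correlated at -0.12 over the fitted genes. With 2 libraries per genotype this cannot show whether same-numbered libraries shared a litter or batch, and the labels name none. The crossed replicate block, added after the data were seen, called 306 genes higher and 149 lower over all genes, beside 304 and 123 without a block and 155 and 38 with it. With no filter, 70 and 15 genes were called among 38986.

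Signs of uncalled members reversed in 5 values over 3 fits: without Zeb1-CKO replicate 1, Igf1r (-0.021) and Igfbp7 (0.068); without Zeb1-CKO replicate 2, Insr (0.058) and Igfbp4 (0.11); and without control replicate 2, Insr (0.41). Over the alternatives limma's adjusted p ranged from 0.0175 to 0.153 for Igf1, from 0.00509 to 0.157 for Igfbp3 and from 0.0130 to 0.0898 for Htra1. Without 1 library, log2 fold changes ranged from -0.021 to 0.27 for Igf1r, -0.57 to 0.41 for Insr, -1.09 to 0.11 for Igfbp4 and -0.83 to 0.068 for Igfbp7. The fits without a library have fewer samples. The difference in Igfbp3 share ranged from 11.9 to 26.8 percentage points without 1 library, and was 25.95 without Igfbp7 in the sum. At FPKM near 1, about 15 to 39 reads stood behind each value of Igfbp6.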
